A study of Sus scrofa with 12 samples.

Results

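Immediate early response genes are transcribed within minutes of a stimulus to the cell, without the need for newly made proteins. Growth factor and stress signals reach them through mitogen-activated protein kinases and through factors already bound at their promoters, and most of their mRNAs are short-lived. In the intestine they are known to respond to growth signals, microbial products, cell damage and the handling of tissue. The group described here holds 10 listed genes: FOS, FOSB, JUN, JUNB and JUND, whose proteins pair into the transcription factor AP-1; the transcription factor EGR1; IER2; the phosphatase DUSP1; the mRNA decay factor ZFP36; and the stress sensor GADD45B. Its members were all probe sets that the platform's gene annotation names with one of these symbols. For a gene with several, the one brightest on average over the 12 arrays stands for the gene, and the others are given beside it. Of the 10 genes, 8 had a probe set, out of 13755 genes named on the array, with 4 probe sets for DUSP1, 2 for JUN and 1 for each of the others. EGR1 and IER2 had no probe set under their symbol and were not analysed here.

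The samples were ileal mucosa of 12 pigs aged 140 days, 6 of high and 6 of low feed efficiency (the growth an animal gains from its feed), with 3 males and 3 females in each group. No treatment, breed or diet that would separate the groups is given in the sources used here, and neither is the time between slaughter and sampling. Each pig gave 1 array, on which the deposited values are log2 signals. A difference of 1 on this scale is a doubling of signal, and signals of different probe sets are not comparable as amounts of mRNA. In bulk mucosa, fewer cells of a type and less RNA per cell cannot be told apart.

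The labelled tissue was checked against epithelial markers, of which 11 of 12 had a probe set and all 11 were kept. Their mean log2 level per pig was 7.82 to 10.27 in high and 9.40 to 10.46 in low feed efficiency pigs. Of 8 smooth muscle markers 7 were kept, at 7.91 to 8.93 in high and 8.22 to 8.84 in low feed efficiency pigs. The markers thus do not show that the samples held mucosa alone. High feed efficiency pig 1 had an array unlike the rest, with a median r of 0.899 to the other arrays. It lay at -107.7 on the first principal component, and low feed efficiency pig 2 was next lowest at -44.8, while the other end was low feed efficiency pig 4 at 61.2. Low feed efficiency pig 2 had a median r of 0.944, above high feed efficiency pig 3 (0.930) and low feed efficiency pig 4 (0.938). Several results are given with and without the 2 males lowest on the first principal component, a choice made after the values were seen. Pig identifiers fall into a range of 301 to 310, with 8 pigs, and a range of 317 to 324, with 4 pigs, all female, so sex and range overlap in part.

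**Figure D1:**
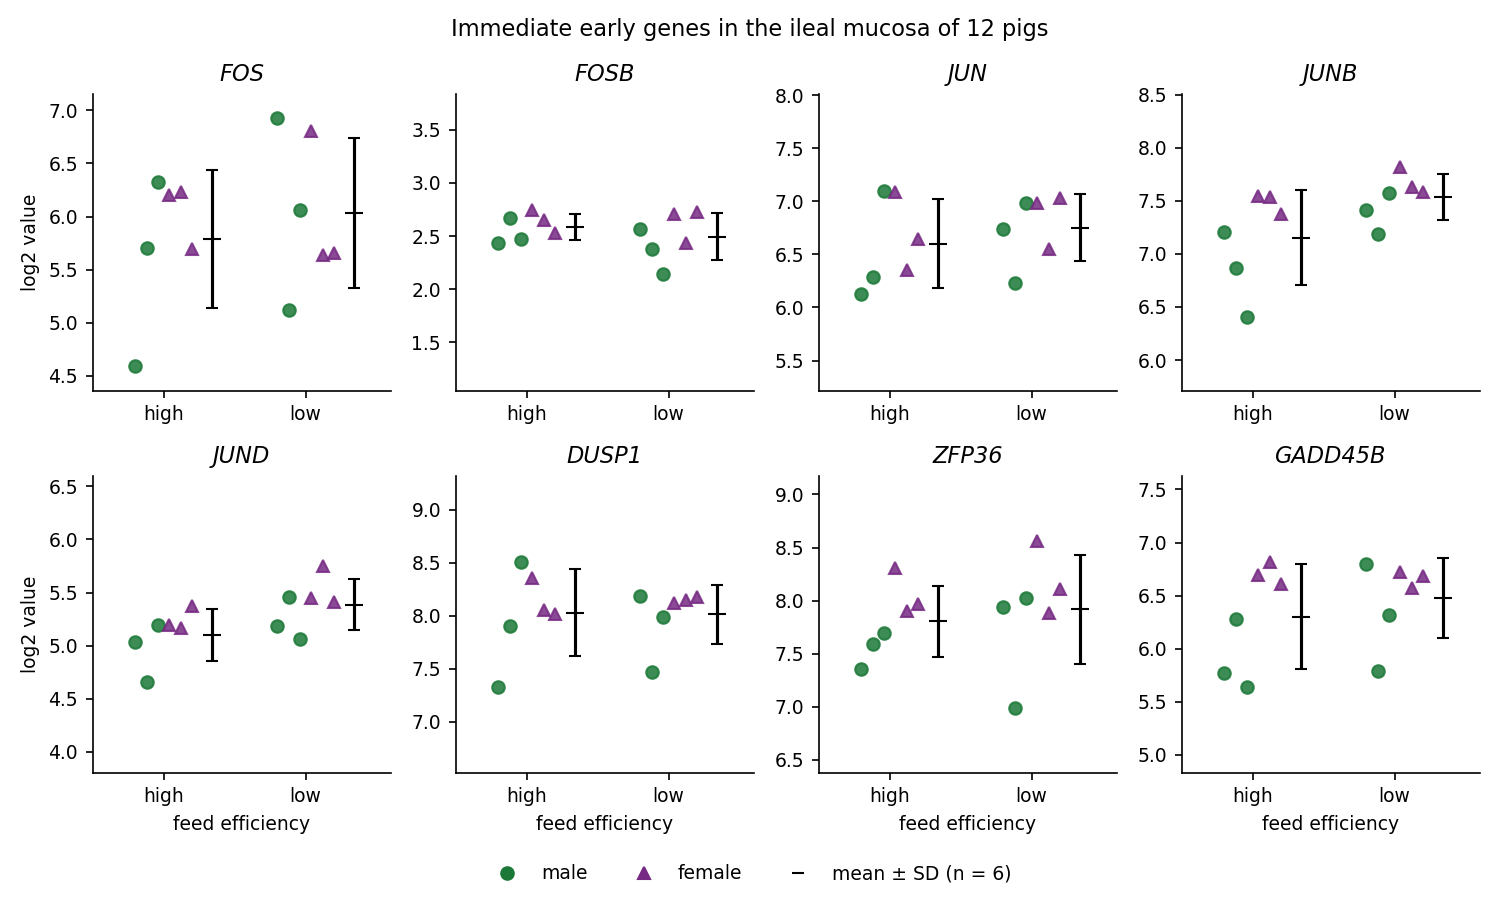
Log2 signal of the 8 measured genes in each of the 12 pigs, by feed efficiency group and sex; each point is a pig. FOS has the widest spread, from 4.59 to 6.92, and the high and low feed efficiency pigs overlap for every gene.

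FOS encodes the AP-1 subunit whose mRNA is among the most rapidly induced and most rapidly degraded. It read 4.59, 5.70 and 6.33 in the males and 6.21, 6.23 and 5.69 in the females of high feed efficiency. It read 6.92, 5.12 and 6.06 in the males and 6.80, 5.64 and 5.65 in the females of low feed efficiency. The highest and the lowest values of the series were both in males, and the groups overlapped over most of their range. The span of 2.33 across pigs is a 5.03-fold range of signal. FOS averaged 5.79 ± 0.65 in high and 6.03 ± 0.71 in low feed efficiency pigs (SD, n = 6 each), a difference of -0.24 ± 0.36 (SE, limma adjusted p = 0.999, exact permutation p = 0.595). Leaving out 1 pig moved that difference in both directions. It was -0.0024 without high feed efficiency pig 1, -0.015 without low feed efficiency pig 1 and -0.098 without low feed efficiency pig 4. It was -0.39 without high feed efficiency pig 3 and -0.42 without low feed efficiency pig 2.

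FOSB, a close relative of FOS, lay at the lower end of the measurable range. Its mean log2 signal of 2.54 was under the filter of 2.67 that left out the dimmest 30% of probe sets. The median of the array's 69 background control probe sets was 2.43 to 2.71 per array. FOSB read 2.44 to 2.74 in high and 2.14 to 2.72 in low feed efficiency pigs, so these values describe signal near background. Background probe sets varied widely, and their 95th percentile was 7.72, and the share of background in the members' signals was not estimated. With no filter, its difference between high and low feed efficiency was 0.09 ± 0.11 (SE, limma adjusted p = 0.999).

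JUN encodes a strongly activating AP-1 partner of FOS and drives cell cycle entry. Its signal was 6.13 to 7.10 in high and 6.23 to 7.03 in low feed efficiency pigs, with averages of 6.60 ± 0.42 and 6.75 ± 0.32 (SD, n = 6 each). The difference of -0.15 ± 0.20 (SE) lay within the spread between pigs, and it ran from -0.28 without high feed efficiency pig 3 to -0.069 without high feed efficiency pig 1. A second JUN probe set, at a mean of 4.15, correlated with the first at r = -0.22 across the 12 pigs, so the JUN values rest on the probe set chosen.

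JUNB, which can replace JUN in AP-1 and restrains proliferation in several cell types, had the lowest unadjusted p of the members in the feed efficiency comparison. It read 7.20, 6.86 and 6.40 in the males and 7.54, 7.53 and 7.37 in the females of high feed efficiency. In low feed efficiency pigs it read 7.41, 7.18 and 7.58 in males and 7.82, 7.63 and 7.58 in females. Within females, all 3 high feed efficiency pigs lay below all 3 of low feed efficiency, as they did for 3.29% of all probe sets, while across both sexes the groups overlapped. The averages were 7.15 ± 0.45 in high and 7.53 ± 0.22 in low feed efficiency pigs (SD, n = 6 each), a difference of -0.38 ± 0.15 (SE) or 0.768-fold. The unadjusted p was 0.0244 and the exact permutation p was 0.01, but the limma adjusted p was 0.999, so JUNB was not called.

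JUND, the member of the family that is expressed steadily rather than in bursts, showed a smaller gap. In high feed efficiency pigs it read 5.03, 4.66 and 5.19 in males and 5.19, 5.16 and 5.37 in females. In low feed efficiency pigs it read 5.19, 5.46 and 5.06 in males and 5.45, 5.75 and 5.41 in females. The high and low feed efficiency females did not overlap here either, and the males did; JUNB and JUND were the 2 of 7 tested genes with such females. JUND averaged 5.10 ± 0.24 in high and 5.39 ± 0.24 in low feed efficiency pigs (SD, n = 6 each), a difference of -0.28 ± 0.13 (SE, 0.821-fold, exact permutation p = 0.025, limma adjusted p = 0.999).

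DUSP1 dephosphorylates and switches off the kinases that induce the family. Its brightest probe set read 7.33 to 8.51 in high and 7.47 to 8.19 in low feed efficiency pigs. The averages were 8.03 ± 0.41 and 8.01 ± 0.28 (SD, n = 6 each), and the difference was 0.014 ± 0.19 (SE, limma adjusted p = 0.999). The sign of so small a value depended on the probe set: the other 3 DUSP1 probe sets gave -0.16, -0.18 and -0.23. Correlations among the 4 probe sets ran from 0.43 to 0.91.

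ZFP36, also called tristetraprolin, binds AU-rich mRNAs, including those of inflammatory cytokines, and speeds their decay. It averaged 7.80 ± 0.33 in high and 7.92 ± 0.52 in low feed efficiency pigs (SD, n = 6 each), a difference of -0.11 ± 0.19 (SE). GADD45B, which binds stress kinases and is induced by damage and inflammatory signals, averaged 6.30 ± 0.50 in high and 6.48 ± 0.38 in low feed efficiency pigs, a difference of -0.18 ± 0.18 (SE). With 1 pig left out, ZFP36 ran from -0.26 (without low feed efficiency pig 2) to -0.029 (without low feed efficiency pig 4). GADD45B ran from -0.27 (without low feed efficiency pig 2) to -0.044 (without low feed efficiency pig 1). For both genes the exact permutation p was above that of JUNB and JUND, at 0.575 for ZFP36 and 0.385 for GADD45B.

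**Figure D2:**
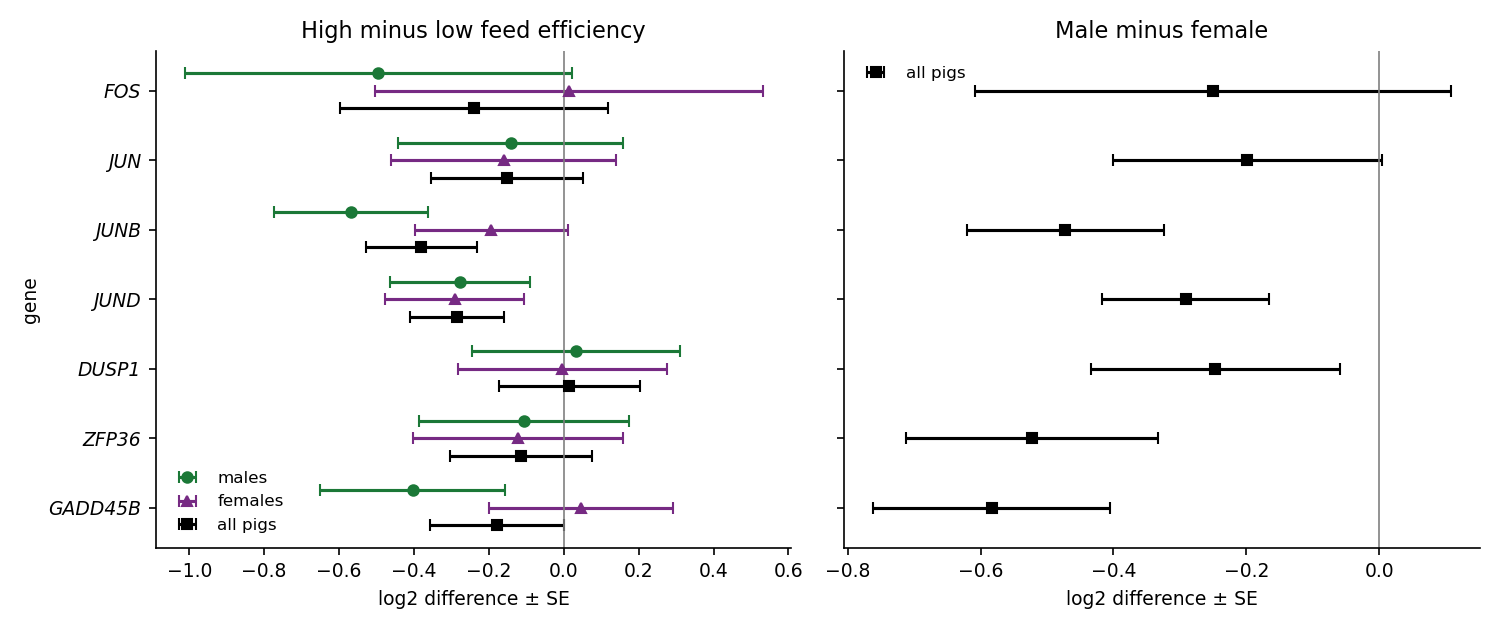
Log2 difference with its standard error for the 7 tested genes, high minus low feed efficiency (males, females and all pigs) and male minus female (all pigs). Over all pigs, in the first comparison 6 of 7 lie below 0 and DUSP1 lies at 0.014; in the second all 7 lie below 0, from -0.58 for GADD45B to -0.20 for JUN.

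Of the 7 tested genes, 0 passed an adjusted p of 0.05 between high and low feed efficiency, and over all 33405 probe sets tested the share called was also 0%. At an unadjusted p under 0.05, JUNB and JUND were lower in high feed efficiency pigs, against 1.42% of all probe sets. Their limma adjusted p was 0.999. Both values had been seen earlier in these same 12 arrays, so this count is no independent evidence of a decrease. The difference was below 0 for 6 of 7 genes, with a median of -0.18, against 49.4% of all probe sets and a median of 0.0025. Of the 21 pairs of these genes, 10 had an r above 0.5 across pigs, so the 7 are not independent counts. High and low feed efficiency pigs overlapped for all 7, and 0.0928% of all probe sets had groups that did not overlap.

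For all 7 tested genes the male minus female difference was larger in size than the high minus low difference. For FOS (-0.25 against -0.24) and JUND (-0.29 against -0.28) they were nearly equal. With array weights the order turned for FOS (-0.037 against -0.10) and JUN (-0.19 against -0.21). Over all probe sets the median absolute difference was 0.191 between the sexes and 0.118 between the feed efficiency groups. The share of all probe sets with this order was not counted. GADD45B read 5.77, 6.28 and 5.64 in high and 6.80, 5.79 and 6.32 in low feed efficiency males. In females it read 6.69, 6.82 and 6.61 in high and 6.72, 6.57 and 6.69 in low feed efficiency pigs. Of the 6 males, 5 lay below every female, and low feed efficiency pig 1 was the exception. GADD45B averaged 6.10 ± 0.44 in the 6 males and 6.68 ± 0.087 in the 6 females (SD), a difference of -0.58 ± 0.18 (SE) or 0.667-fold, with an exact permutation p of 0.02 and a limma adjusted p of 0.130. Without low feed efficiency pig 1 the difference was -0.72 and the limma adjusted p was 0.0482. Without that pig 417 of all 33405 probe sets (1.25%) were called between the sexes, against 11 with it, so GADD45B was 1 of many.

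ZFP36 read 7.36, 7.59 and 7.69 in high and 7.94, 6.99 and 8.03 in low feed efficiency males. In females it read 8.31, 7.90 and 7.97 in high and 8.56, 7.88 and 8.11 in low feed efficiency pigs. It averaged 7.60 ± 0.38 in the 6 males and 8.12 ± 0.27 in the 6 females (SD), a difference of -0.52 ± 0.19 (SE, exact permutation p = 0.015, limma adjusted p = 0.175). JUNB averaged 7.11 ± 0.42 in males and 7.58 ± 0.14 in females, a difference of -0.47 ± 0.15 (SE, limma adjusted p = 0.137). Its exact permutation p of 0.005 is the smallest that the 400 arrangements can give. For each of these genes 4 of 6 males lay below every female. JUND averaged 5.10 ± 0.26 in males and 5.39 ± 0.21 in females, a difference of -0.29 ± 0.13 (SE, exact permutation p = 0.04, limma adjusted p = 0.237).

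FOS, DUSP1 and JUN had smaller male minus female differences of -0.25 ± 0.36, -0.25 ± 0.19 and -0.20 ± 0.20 (SE). The size for DUSP1 and the sign for JUN depended on the probe set. The other DUSP1 probe sets gave -0.52 (unadjusted p = 0.0202, limma adjusted p = 0.184), -0.49 and 0.011, and the second JUN probe set gave 0.27. Without high feed efficiency pig 1 and low feed efficiency pig 2, both males, those of FOS, DUSP1 and JUN were 0.22, 0.0022 and 0.0019. Without the same pigs GADD45B stood at -0.42, JUNB at -0.52, JUND at -0.37 and ZFP36 at -0.31. Among identifiers 301 to 310 alone, with 6 males and 2 females, FOS stood at -0.72, JUN at -0.46 and DUSP1 at -0.34. In the same 8 pigs ZFP36 stood at -0.84, GADD45B at -0.61, JUNB at -0.57 and JUND at -0.22.

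Between the sexes 0 of 7 genes passed the adjusted threshold, against 0.0329% of all probe sets. At an unadjusted p under 0.05, 4 genes (GADD45B, JUNB, ZFP36 and JUND) were lower in males, against 9.17% of all probe sets. All 7 differences were below 0, with a median of -0.29, against 51% of all probe sets and a median of -0.0064. Males and females overlapped for each of the 7, and 0.934% of all probe sets lay wholly lower in males.

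The feed efficiency difference was also set between the sexes. For JUNB it was -0.57 ± 0.20 in males and -0.19 ± 0.20 in females (SE, n = 3 per group). GADD45B differed by -0.40 ± 0.25 in males and 0.05 ± 0.25 in females, and FOS by -0.50 ± 0.52 in males and 0.01 ± 0.52 in females. For JUND the values were nearly equal, at -0.28 ± 0.19 in males and -0.29 ± 0.19 in females. The feed efficiency difference in males minus that in females was -0.37 ± 0.29 for JUNB, -0.45 ± 0.35 for GADD45B and -0.51 ± 0.73 for FOS (SE). Of the 7 genes 0 passed the adjusted threshold (0% of all probe sets), and 0 had an unadjusted p under 0.05 (2.76% of all probe sets).

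**Figure D3:**
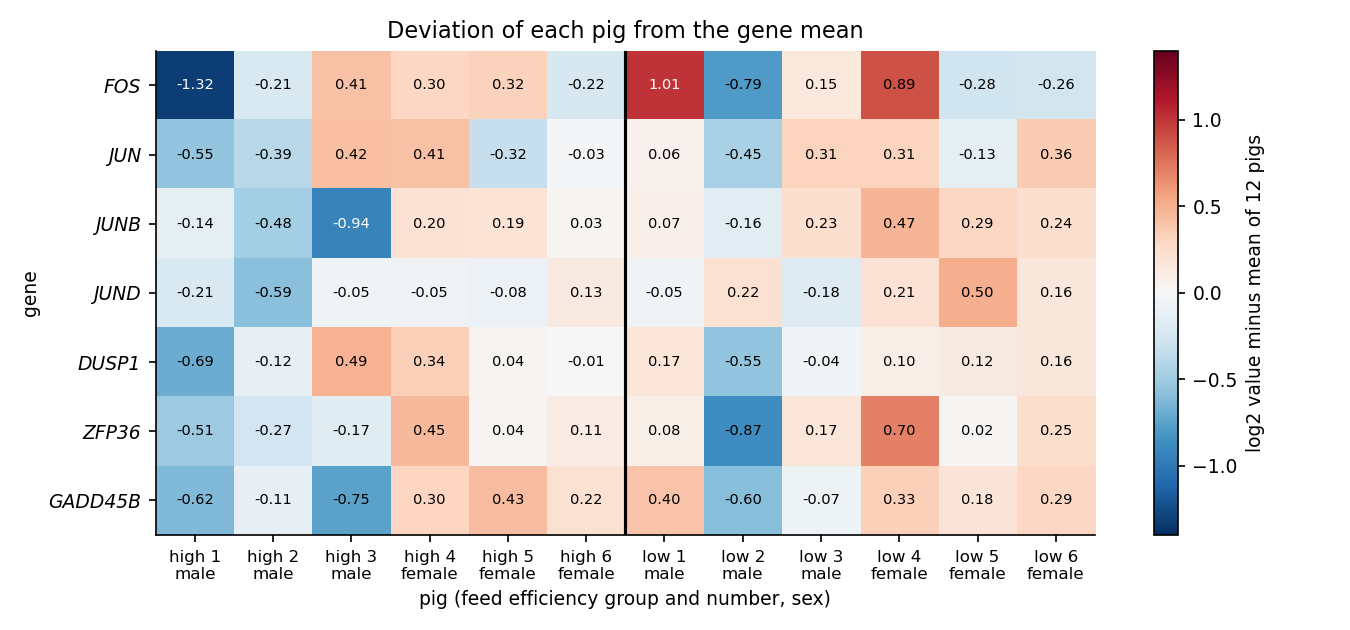
Deviation of each tested gene from its mean over the 12 pigs (log2), by pig. High feed efficiency pig 1 is below the mean for all 7 genes, and low feed efficiency pig 4 is above it for all 7.

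Pigs differed from each other in FOS more than in any other tested member. After feed efficiency and sex were fitted, the residual SD of FOS was 0.702, wider than for 92.6% of probe sets, whose median was 0.304. JUN, ZFP36, DUSP1 and GADD45B lay between 0.319 and 0.374. JUNB at 0.248 and JUND at 0.191 were under the median of all probe sets. Without high feed efficiency pig 1 the residual SD of FOS was 0.602, and without high feed efficiency pig 3 that of JUNB was 0.159.

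**Figure D4:**
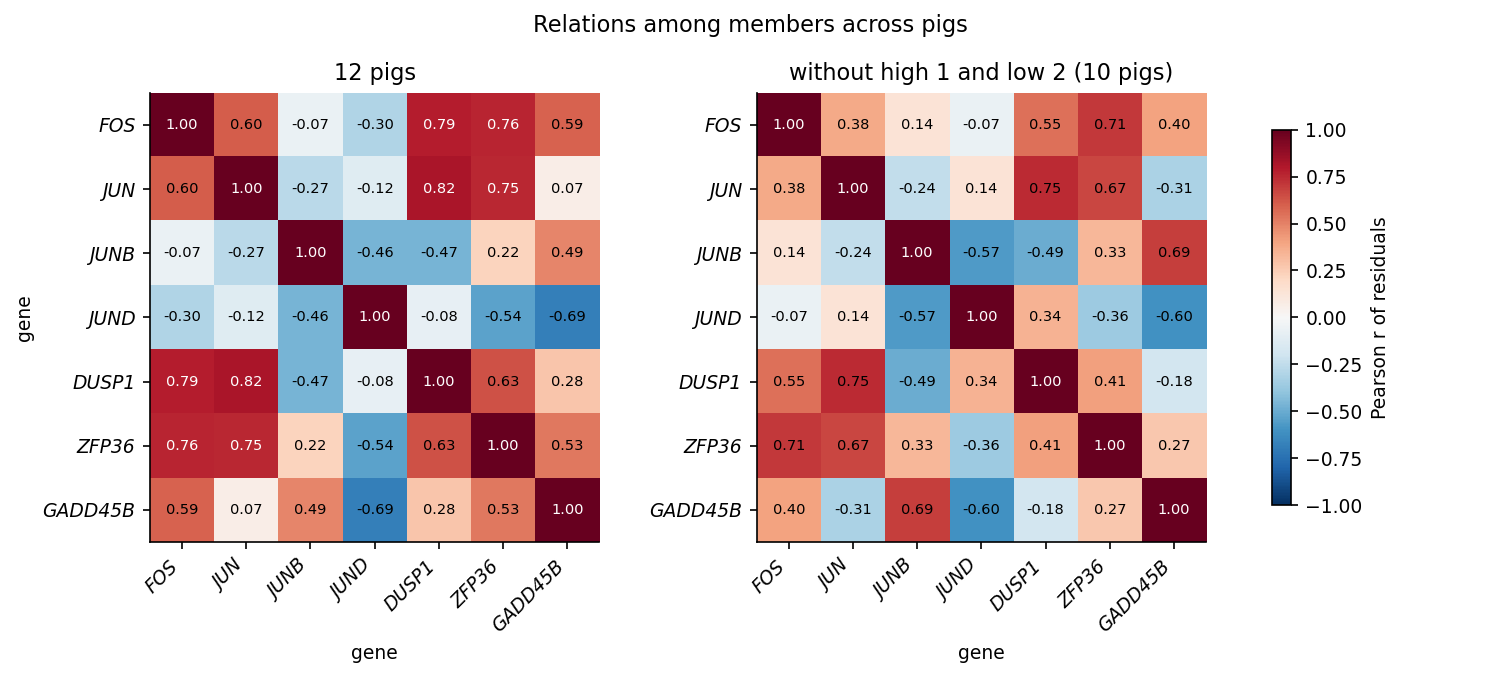
Pearson r between the residuals of the 7 tested genes after feed efficiency and sex were fitted. Values are over 12 pigs and without the 2 pigs lowest on the first principal component. FOS, JUN, DUSP1 and ZFP36 form a block of positive values, 0.60 to 0.82 over 12 pigs and 0.38 to 0.75 without the 2. JUND is negative with GADD45B at -0.69 over 12 pigs.

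The members did not vary as 1 unit. Across the 12 pigs the 21 pairs had a median r of 0.46, from -0.01 to 0.81, and the residual r had a median of 0.22, from -0.69 to 0.82. The highest residual values joined JUN with DUSP1 (0.82), FOS with DUSP1 (0.79), FOS with ZFP36 (0.76) and JUN with ZFP36 (0.75). JUNB had lower residual values with these genes, at 0.22 with ZFP36, -0.07 with FOS, -0.27 with JUN and -0.47 with DUSP1. Its r with ZFP36 before that fit was 0.58 (rho 0.74). Its r with DUSP1 was -0.01 over 12 pigs and 0.76 without the 2 pigs farthest from the JUNB median. It was -0.36 without high feed efficiency pig 1 and low feed efficiency pig 2. In males it was -0.42 and in females 0.20, so its sign depended on the pigs kept. The residual r of JUND was negative with GADD45B (-0.69) and ZFP36 (-0.54). Before that fit its r was positive, at 0.22 with GADD45B and 0.19 with ZFP36. These are descriptions with no test, and all genes share the same 12 arrays.

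Part of this pattern depended on the 2 arrays lowest on the first principal component. Without them the residual values were 0.75 for JUN with DUSP1, 0.55 for FOS with DUSP1, 0.71 for FOS with ZFP36 and 0.67 for JUN with ZFP36. They were -0.60 for JUND with GADD45B and -0.36 for JUND with ZFP36. FOS with JUN went from 0.60 over 12 pigs to 0.38, and DUSP1 with ZFP36 from 0.63 to 0.41. The r of FOS and DUSP1 was 0.77 over 12 pigs (Spearman rho 0.62) and 0.34 without these arrays, with 0.89 in the 6 males and 0.12 in the 6 females. The r of JUN and DUSP1 was 0.81 (rho 0.85) and 0.65 without them, with 0.88 in males and 0.67 in females. The r of JUNB and GADD45B was 0.75 (rho 0.61) and 0.86 without them, with 0.58 in males and 0.20 in females; both genes also differed in the same direction between the sexes. Members also followed the first principal component of all probe sets, at r = 0.87 for ZFP36, 0.77 for GADD45B, 0.76 for FOS and 0.74 for DUSP1. Without the 2 arrays these values were 0.97, 0.60, 0.34 and 0.09.

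For FOS, JUNB and DUSP1, the genes with the most similar pattern over the 12 pigs were not members. Such genes are the largest of 12284 values of r over 12 arrays. Their place above the members thus does not show that members are unlike each other. Among 12284 genes, those nearest to FOS were DPH3 (r = 0.902), ENTPD7 (0.897) and SPRY1 (0.896), and DUSP1 ranked 322. Without the 2 arrays lowest on the first principal component, these r were 0.776 for DPH3, 0.845 for ENTPD7 and 0.734 for SPRY1. The 3 nearest to JUNB were DEF8 (0.914), MOCS1 (0.914) and CBR3 (0.895), with GADD45B at rank 154, and without those arrays they had 0.944, 0.929 and 0.954. Those nearest to DUSP1 were MANSC1 (0.924), COL4A5 (0.915) and ERP44 (0.914), with JUN at rank 143, and without those arrays they had 0.719, 0.836 and 0.766.

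**Figure D5:**
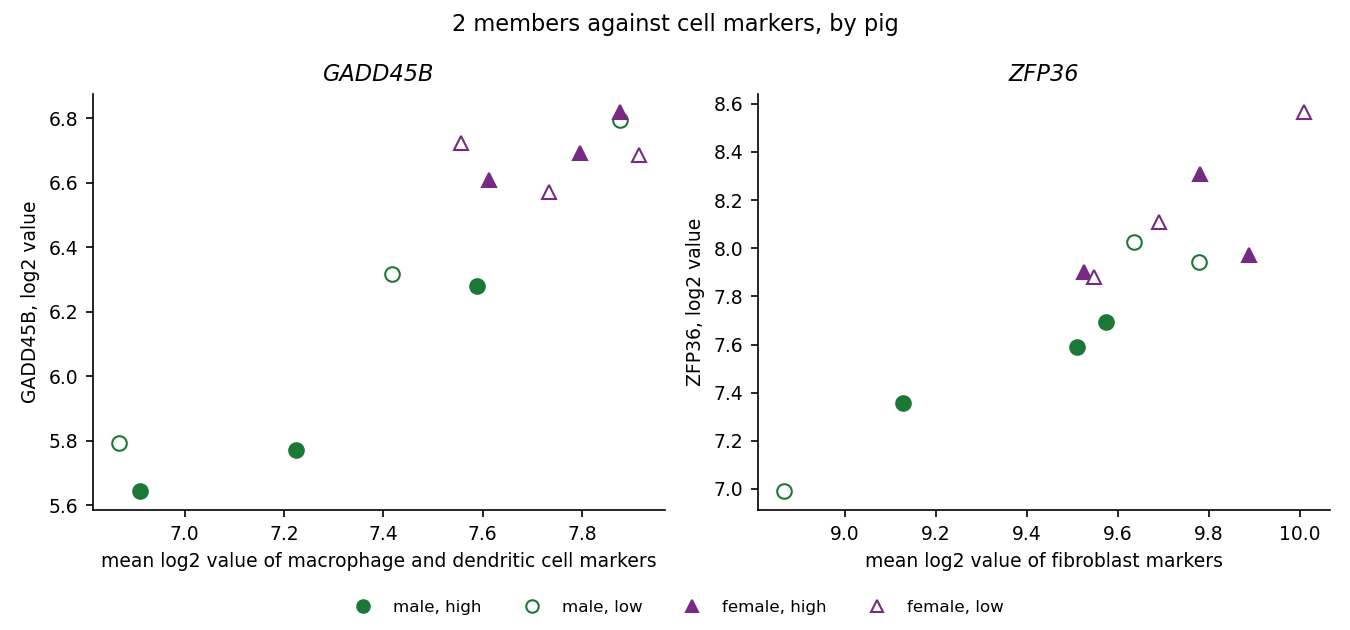
Log2 signal of GADD45B against the mean log2 level of macrophage and dendritic cell markers, and of ZFP36 against that of fibroblast markers, each point a pig. In both pairs high values go together across the 12 pigs, at r = 0.93.

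Markers of other cell types moved with several members. Of 9 macrophage and dendritic cell markers 5 were measured, with a mean level per pig of 6.87 to 7.88 in males and 7.56 to 7.91 in females. The log2 of their summed signal was 10.76 to 12.28 in males and 12.10 to 12.47 in females. The male minus female difference of the mean level was -0.43 (exact permutation p = 0.04). GADD45B correlated with this level at r = 0.93 (rho 0.79), at 0.94 within males and 0.36 within females. ZFP36 correlated with the level of 7 fibroblast markers at r = 0.93 (rho 0.90). It stood at 0.80 without the 2 arrays lowest on the first principal component. The fibroblast level was 8.87 to 9.78 in males and 9.53 to 10.01 in females (exact permutation p = 0.08). FOS correlated with the epithelial level at 0.82, and at 0.64 without those arrays. With the endothelial level it stood at 0.79, and at 0.80 without those arrays. GADD45B also correlated with plasma cell markers at 0.88, but at 0.91 within males and -0.28 within females. ZFP36 correlated with T cell markers at 0.82, with 0.80 within males and 0.75 within females. These relations were thus not particular to 1 cell type. High feed efficiency pig 1, the pig with the lowest FOS, also had the lowest epithelial level, 7.82 against 9.29 in the next lowest pig. Of 7 B cell markers 4 were measured, and their level was 6.02 in low feed efficiency pig 4 and 8.35 to 10.83 in the other pigs. Low feed efficiency pig 4 had the highest ZFP36 and JUNB of the series. Over 12 pigs the B cell level correlated with ZFP36 at -0.54, FOS at -0.49, JUN at -0.59 and JUNB at -0.11. In the 6 females it correlated with ZFP36 at -0.95, FOS at -0.85 and JUNB at -0.75. In the 6 males these values were weaker or positive, at -0.25 for ZFP36, -0.29 for FOS and 0.50 for JUNB. These pairs were picked from 70 after their values were seen, and the part of cell makeup in the members' values was not tested. Of the markers of neurons and red blood cells, ELAVL4, SNAP25 and AHSP lay below the filter.

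Among 36 other immediate early genes, 33 were tested and 0 were called in either comparison. Of these, 18 were lower in high feed efficiency pigs, with a median difference of -0.010, and 0 had an unadjusted p under 0.05. KLF4, which marks differentiating epithelium, averaged 6.32 ± 0.61 in high and 6.71 ± 0.36 in low feed efficiency pigs (SD, n = 6 each). NR4A1, an orphan nuclear receptor, averaged 5.36 ± 0.29 in high and 5.58 ± 0.29 in low feed efficiency pigs. Between the sexes 26 of 33 were lower in males, with a median of -0.16. The clock gene PER1 averaged 5.85 ± 0.25 in males and 6.36 ± 0.36 in females (difference -0.51 ± 0.18 SE, limma adjusted p = 0.165). Over all 12285 genes tested, 55.5% were lower in males, with a median of -0.034.

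Proteins of the FOS and JUN families pair with each other and with ATF, BATF and MAF proteins. Of 14 genes for such partners 8 were tested, 5 lower in high feed efficiency pigs (median -0.014) and 6 lower in males (median -0.15). ATF2, a partner of JUN, averaged 9.15 ± 0.32 in the 6 males and 8.54 ± 0.31 in the 6 females (SD), a difference of 0.61 ± 0.18 (SE, limma adjusted p = 0.126). Its direction was opposite to that of JUNB, JUND and the brightest JUN probe set. The second JUN probe set, at 0.27, went the same way as ATF2.

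Of 28 genes for the kinases and promoter-bound factors upstream, 21 were tested. In high feed efficiency pigs 13 were lower, with a median of -0.031. The stress kinase gene MAPK14, which encodes p38 alpha, averaged 8.20 ± 0.28 in high and 8.46 ± 0.18 in low feed efficiency pigs (SD, n = 6 each). In males 13 of the 21 were lower, with a median of -0.14. RPS6KA1, a kinase activated by ERK, averaged 8.64 ± 0.33 in males and 9.18 ± 0.059 in females (difference -0.54 ± 0.15 SE, limma adjusted p = 0.112).

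Feedback inhibitors and mRNA decay factors, to which DUSP1 and ZFP36 are related, numbered 18, of which 17 were tested. In high feed efficiency pigs 14 of 17 were lower, with a median of -0.11, against 52.4% of all genes. DUSP4, a nuclear phosphatase of ERK, averaged 6.89 ± 0.18 in high and 7.11 ± 0.19 in low feed efficiency pigs. In males 13 of 17 were lower, with a median of -0.17. DUSP7, a phosphatase of ERK in the cytoplasm, averaged 7.14 ± 0.50 in males and 7.996 ± 0.082 in females (difference -0.86 ± 0.20 SE, limma adjusted p = 0.0919). DUSP10 went the other way, at 6.17 ± 0.18 in males and 5.76 ± 0.19 in females (difference 0.41 ± 0.12 SE, limma adjusted p = 0.120).

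Of 23 later target genes of these factors, 19 were tested, 12 lower in high feed efficiency pigs (median -0.077) and 15 lower in males (median -0.29). TIMP1, an inhibitor of matrix proteases, averaged 7.75 ± 0.54 in males and 8.40 ± 0.11 in females (difference -0.64 ± 0.22 SE, limma adjusted p = 0.157). Heat shock genes, which also respond to stress but through another factor, numbered 14 with 10 tested. All 10 lay lower in high feed efficiency pigs by small amounts (median -0.053). Only 3 of the 10 were lower in males (median 0.04). HSF1, the factor that induces heat shock genes, averaged 6.81 ± 0.33 in males and 7.33 ± 0.049 in females (difference -0.52 ± 0.15 SE, limma adjusted p = 0.120). In these lists, too, 0 genes were called in either comparison.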

How the data were processed

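RNA of ileal mucosa from 12 pigs was hybridised to 1-colour Affymetrix arrays. Per the labels' protocols, it was extracted with Qiazol, treated with DNase, column-purified and labelled with biotin after the Ambion WT Expression Kit. GCOS 1.1.1 is named in the submitters' processing notes. The deposited values are on a log2 scale, as read from their range of 0.3 to 14.24. Background correction, probe summary and normalization: not given in the sources used here. No further normalization was applied. Of 47845 probe sets, 123 controls and the 30% of the rest with the lowest mean were left out, which kept 33405. limma 3.58.1 in R 4.3.3 (lmFit, eBayes) was fitted with terms for feed efficiency and sex. A fit of the 4 group means gave the feed efficiency difference in males minus that in females. P-values were adjusted by Benjamini-Hochberg over the 33405 probe sets, and the threshold was 0.05. Exact permutation tests were two-sided, with 400 arrangements within strata. The fit was tested on simulated data. Members, gene lists and the rule for named genes (up to 4 genes a list by smallest p for feed efficiency and up to 2 for sex, of which the text gives some; the 3 genes most like FOS, JUNB and DUSP1) were chosen with earlier results of these data known. The number of arrays limits the precision.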

Additional observations from a re-analysis of the deposited data

Results flagged for a closer look

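Within groups of 6 pigs, the gap from the highest or lowest value to its neighbour was divided by the range and set against Dixon's 95% critical value. Of 16 groups tested, 2 held a pig past it, where chance gives about 5% of groups. FOS in high feed efficiency pig 1 was at 4.59, below the other 5 high feed efficiency pigs; this pig also had the lowest mean level of epithelial markers, 7.82 against 9.29 in the next lowest pig. DUSP1 in low feed efficiency pig 2 was at 7.47 on its brightest probe set, below the other 5 low feed efficiency pigs. On the other DUSP1 probe sets no pig was past the critical value. The second JUN probe set, not among the 16 groups, had low feed efficiency pig 4 past it, at 3.85. High feed efficiency pig 1 and low feed efficiency pig 2 have the 2 lowest positions on the first principal component. The part of the array in their values was not tested.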

How the results depend on the processing

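No paired analysis was possible because the labels give each pig its own identifier and replicate numbers only name pigs. The count of members called stayed at 0 under the alternatives run for feed efficiency. It also stayed at 0 for the feed efficiency difference in males minus that in females. For male minus female it ranged from 0 to 1 when each pig was left out in turn, the 1 being GADD45B without low feed efficiency pig 1, where 417 of all probe sets were called, against 11 with it. The high minus low difference of single members kept its direction and side of the threshold in 156 values and turned in 5, all of DUSP1. Male minus female did so in 156, turned in 4 and passed the threshold in 1. The feed efficiency difference in males minus that in females kept both in 119 and turned in 35. The cause of the turns was not tested.

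For DUSP1, high minus low was -0.015 with array weights, -0.14 with the mean over its probe sets, and -0.12 to 0.14 with each pig left out. Male minus female was 0.037 for JUN with the mean over its probe sets. Without high feed efficiency pig 1 and low feed efficiency pig 2, a setting chosen after seeing the data, it was 0.22 for FOS, 0.0019 for JUN and 0.0022 for DUSP1. In that setting the feed efficiency difference in males minus that in females was -0.0039 for JUN and -0.22 for ZFP36. With array weights it was -0.081 for JUN, -0.056 for JUND, -0.0018 for DUSP1 and -0.17 for ZFP36. Among identifiers 301 to 310 it was 0.098 for FOS, -0.24 for JUN, -0.023 for JUND and -0.21 for DUSP1. Quantile normalization gave -0.0022 for JUND, and the mean over probe sets gave -0.20 for DUSP1. With each pig left out, it ran from -0.28 to 0.21 for JUN, -0.10 to 0.17 for JUND, -0.26 to 0.33 for DUSP1 and -0.32 to 0.20 for ZFP36.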
